A study of Caenorhabditis elegans with 2 samples.

Results

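The genes described here carry names used for the pre-mRNA splicing machinery of the nematode Caenorhabditis elegans, although not every member is a splicing protein. They were chosen by name, as the protein-coding genes of the Ensembl WBcel235 annotation whose names begin with snr-, rsp-, prp-, uaf-, snrp-, sftb- or smu-, with sap-, rnp- or sut- and a digit, or are sfa-1. This rule found 55 of 19985 protein-coding genes, and no measured value entered it. The data are peak lists from chromatin immunoprecipitation followed by sequencing (ChIP-seq) of ZK546.5, a worm protein assayed as a transcription factor. Both biological replicates were whole L2 larvae of mixed sex of 1 strain, OP231, which carries unc-119(ed3) III and the transgene wgIs231, and which stably expresses ZK546.5 with a GFP-FLAG tag at its C-terminus. All of the worms carried the transgene, so the peaks are those of the tagged protein in whole animals, without tissue resolution. The labels do not say which promoter drives the transgene. The 2 replicates form 1 group, a control library entered only the authors' peak calling, and no condition is compared with another.

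Splicing removes introns from pre-mRNA in the spliceosome, a machine built from small nuclear ribonucleoproteins (snRNPs). Each of the U1, U2, U4 and U5 snRNPs holds a ring of Sm proteins around its RNA, while SR proteins bind exons and help to select splice sites. Many worm genes also receive their first exon by trans-splicing, and many are transcribed as downstream members of operons. An annotated 5' end in this animal can therefore lie downstream of the start of transcription.

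A gene was counted as carrying a peak when a summit lay in a window that reached 1000 bp upstream and 200 bp into the gene at any annotated transcript start. All coordinates are ce11. The thresholded list, which the authors derived by the irreproducible discovery rate (IDR), held 491 peaks. The pooled list of peaks and background regions held 30000 regions, that of replicate 1 held 19076 and that of replicate 2 held 30000. Signal is the authors' own value for each region, and it ranks regions within a list only, since the lists are not on 1 scale. The lowest signal in the thresholded list was 45.9, against a median of 16.0 in the pooled list. The number of reads behind the lists is unknown here. The 95% intervals given with shares are exact (Clopper-Pearson) and account for counting error alone. They treat genes as separate, although a summit can be counted for more than 1 gene.

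Of the 55 splicing factor genes, 9 had a thresholded summit in the window (16.4%, 95% interval 7.77 to 28.8), against 2.89% of all protein-coding genes (578 of 19985). These were prp-8, rsp-6, rsp-5, snr-3, smu-1, snr-4, prp-40, rsp-7 and snr-1, of which rsp-5 and snr-3 were counted on the same summit. A further 28 members had only weaker pooled summits below the threshold, and 18 had no pooled summit. In all, 37 members had some pooled summit (67.3%), against 40.8% of all coding genes. Among genes with any pooled summit the thresholded share was 24.3% of members (9 of 37) and 7.08% of all coding genes. Their best pooled summits had a median rank of 3728, against 10895 over the 8159 coding genes with one. In the lists of single replicates 30 members had some summit with replicate 1 (54.5%, against 29.4% of coding genes) and 36 with replicate 2 (65.5%, against 41.1%). The windows themselves were of like length, with a median of 1201 bp in both sets and a mean of 1387 bp for members and 1459 bp for all coding genes. No test of the list was run, because its members were chosen with results of these data known.

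The peaks that carry these counts read as follows on ce11, from RefSeq's WBcel235 sequence, over 101 bases centred on each summit and 5' to 3' along the coding strand of the gene named. They are shown because the counts rest on them, and the peak at smu-1 is given by its position alone. Capitals mark matches, on either strand, to the short motifs and the 14-base stretch described with the sequence results. The windows of prp-40 and both of snr-4 hold no such match.
prp-8 (chrIII:8164002-8164102, plus strand): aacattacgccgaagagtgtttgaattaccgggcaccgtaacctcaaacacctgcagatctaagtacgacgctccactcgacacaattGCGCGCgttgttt
rsp-6 (chrIV:7791373-7791473, minus strand): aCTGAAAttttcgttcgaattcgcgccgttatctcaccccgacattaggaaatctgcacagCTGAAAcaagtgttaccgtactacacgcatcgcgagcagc
rsp-5 and snr-3 (chrII:6489939-6490039, plus strand, along rsp-5): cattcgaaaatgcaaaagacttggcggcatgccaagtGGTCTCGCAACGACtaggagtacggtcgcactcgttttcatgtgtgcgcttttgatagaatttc
snr-4, stronger peak (chrV:11980082-11980182, minus strand): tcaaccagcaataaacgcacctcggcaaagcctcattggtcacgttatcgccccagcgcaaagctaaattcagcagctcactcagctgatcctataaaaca
snr-4, weaker peak (chrV:11980283-11980383, minus strand): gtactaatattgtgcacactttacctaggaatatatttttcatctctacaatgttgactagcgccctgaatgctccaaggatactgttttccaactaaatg
prp-40 (chrIII:9521875-9521975, plus strand): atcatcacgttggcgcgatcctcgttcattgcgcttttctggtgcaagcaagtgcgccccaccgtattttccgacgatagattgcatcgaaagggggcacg
rsp-7 (chrII:10658874-10658974, plus strand): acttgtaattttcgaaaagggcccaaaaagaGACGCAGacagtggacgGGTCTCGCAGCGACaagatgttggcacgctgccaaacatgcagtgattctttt
snr-1 (chrIV:17087618-17087718, plus strand): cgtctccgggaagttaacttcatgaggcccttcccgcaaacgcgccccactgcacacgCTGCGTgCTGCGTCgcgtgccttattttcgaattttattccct

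**Figure D1:**
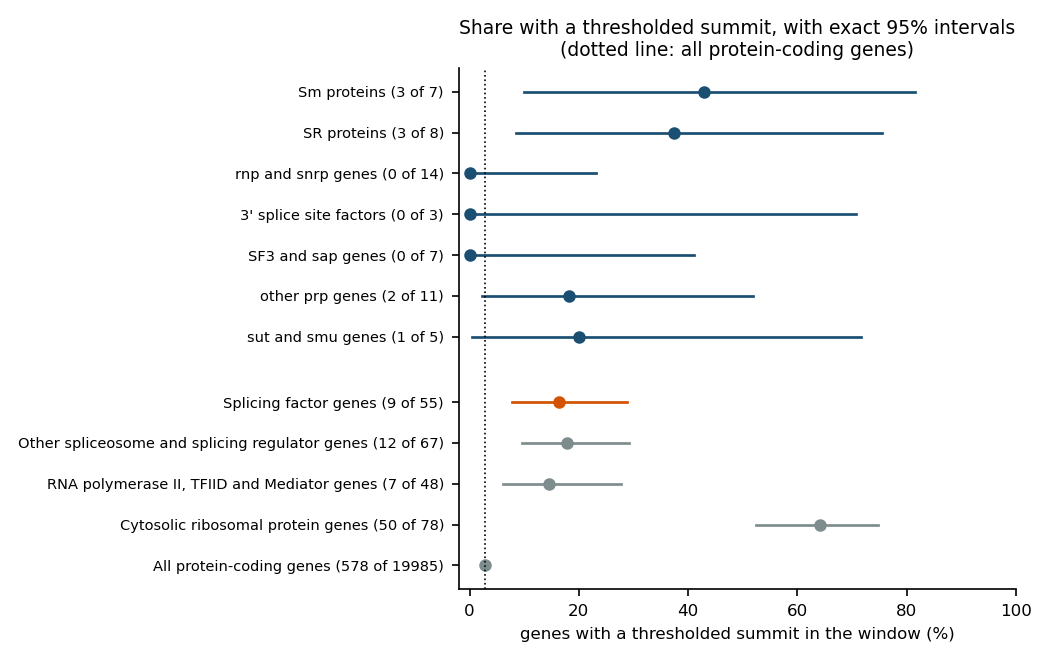
Percentage of genes with a thresholded summit in the window (points) with exact 95% intervals (lines), for the members by role (blue), for all 55 members (orange) and for other gene sets (grey). The Sm and SR protein genes stand at 42.9% and 37.5%, the 14 rnp and snrp genes at 0%, and all protein-coding genes at 2.89% (dotted line). The peak shared by snr-3 and rsp-5 counts in both the Sm and the SR group.

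Sm proteins form the ring at the core of the U1, U2, U4 and U5 snRNPs. Of 7 Sm protein genes, 3 had a thresholded summit (42.9%, 95% interval 9.90 to 81.6), beside the 2.89% of all coding genes. Some pooled summit was found for 6 of the 7, beside 40.8% of all coding genes. The 3 were snr-3, snr-4 and snr-1, which encode the D-type Sm proteins SmD1, SmD2 and SmD3. The genes of the other Sm proteins, snr-2 (SmB), snr-5 (SmF), snr-6 (SmE) and snr-7 (SmG), had none, a split that was seen only after their values were known.

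The summit at snr-3 lay 228 bp upstream of its 5' end and was shared with rsp-5. It had a pooled signal of 100.4 (rank 178 of the list), a signal of 67.2 in the list of replicate 1 (rank 157) and 38.0 in that of replicate 2 (rank 204). At snr-4 the window held 2 thresholded peaks that overlapped by 155 bp, with summits 409 and 610 bp upstream. The stronger (chrV:11979954-11980309) had a pooled signal of 76.7 (rank 236) and the weaker (chrV:11980155-11980510) 49.7 (rank 442). The list of replicate 1 also held 2 regions there, the stronger with a signal of 46.2 (rank 241) and its summit 5 bp from the stronger pooled one. That of replicate 2 held a single region over both, with a signal of 25.5 (rank 350). Its summit lay 163 bp from the stronger pooled summit and 38 bp from the weaker.

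The stronger snr-4 summit was also 14 bp inside an annotated snRNA gene (WBGene00014291) on the other strand and 173 bp downstream of the 5' end of the non-coding gene C52E4.14. The annotation holds a second snRNA gene under the same name, T11F9.15. The labels do not say how reads from snRNA copies were placed, and their part in this peak was not tested. No other coding gene had this summit in its window.

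Of the best summits of the 9 members counted, that at snr-1 was the weakest in the pooled list, with a signal of 56.1 (rank 376), 381 bp upstream. The peak was chrIV:17087490-17087845. It was closer to the divergent gene snx-13, which encodes a sorting nexin, at 230 bp. In the list of replicate 1 its region had a signal of 39.5 (rank 310), while in that of replicate 2 it had 14.4 and rank 1733, outside the strongest 491. The replicate summits lay 66 and 56 bp to either side of the pooled one. This was the 1 member peak that a single replicate carried among its strongest.

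Outside the threshold, snr-6 came closest. Its pooled signal was 39.9 (rank 606), 330 bp upstream, with 28.3 in replicate 1 (rank 534) and 14.2 in replicate 2 (rank 1806). The genes snr-2 and snr-7 had pooled signals of 21.2 (rank 5440) and 13.8 (rank 22753). In no list did snr-5 have a summit.

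Of the SR protein genes, 3 of 8 were counted (37.5%, 95% interval 8.52 to 75.5), beside 2.89% of all coding genes. Some pooled summit was found for 7 of the 8, beside 40.8% of all coding genes. SR proteins carry RNA recognition motifs and a tail rich in arginine and serine. The strongest was rsp-6, whose summit lay 194 bp upstream and in the window of no other coding gene. It had a pooled signal of 111 (rank 160), with 65.2 in replicate 1 (rank 159) and 43.7 in replicate 2 (rank 170), so it held almost the same place in every list. The rsp-5 summit, 176 bp upstream, is the one shared with snr-3, and rsp-5 was the nearer of the 2 genes. Their 5' ends face away from each other across 403 bp.

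The third, rsp-7, had a pooled signal of 60.1 (rank 344), with 33.8 in replicate 1 (rank 395) and 24.1 in replicate 2 (rank 394). Its summit lay 282 bp upstream, almost midway to the divergent gene snu-13 at 298 bp, and 27 bp inside the non-coding gene M28.13. The protein SNU-13 binds U4 snRNA and box C/D snoRNAs, so this summit, like that of rsp-5 and snr-3, lay in the windows of 2 splicing genes. The other member peaks with 2 coding genes paired prp-8 with bath-42, prp-40 with clu-1 and snr-1 with snx-13. Whether any of these regions acts on both genes was not tested.

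A further pair of members with 1 summit between them lay just below the threshold. The SR protein genes rsp-1 and rsp-2 are divergent neighbours 406 bp apart, and 1 pooled summit with a signal of 38.4 (rank 661) lay 183 bp upstream of rsp-1 and 224 bp upstream of rsp-2. Its signals were 20.4 in replicate 1 (rank 1404) and 15.7 in replicate 2 (rank 1191). Of the remaining SR genes, rsp-8, related to the splicing regulator Tra2, stood at rank 3728 of the pooled list, 627 bp upstream. The gene rsp-3, whose human relative SRSF1 is among the best known SR proteins, had 14.0 (rank 22016). No list held a summit for rsp-4.

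**Figure D2:**
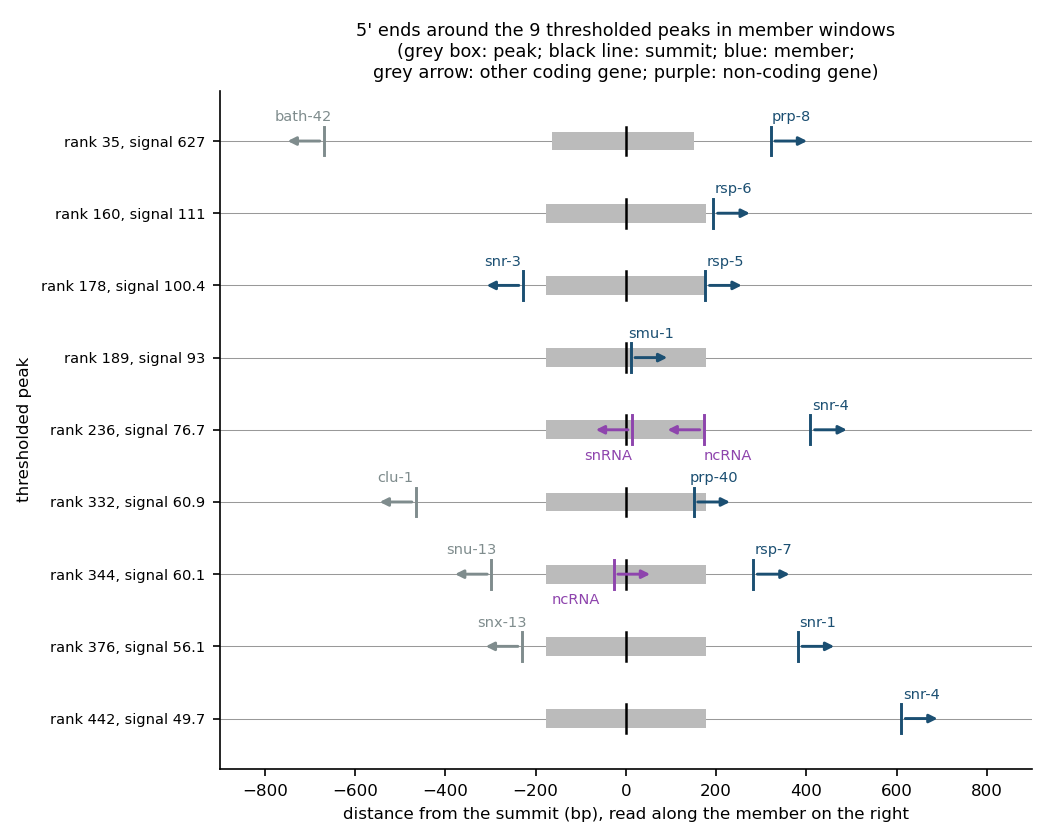
Distance in bp from the summit (black line) to annotated 5' ends for the 9 thresholded peaks in member windows, 1 row a peak, with arrows in the direction of transcription. In 5 rows the summit lies in the windows of 2 coding genes, and at rank 178 both are members, rsp-5 and snr-3. A piRNA gene near snr-4 is not drawn.

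The strongest member peak belonged to prp-8, which encodes the large U5 protein at the catalytic centre of the spliceosome. Its pooled signal was 627 (rank 35), with 378 in replicate 1 and 248 in replicate 2, rank 34 in each. The peak (chrIII:8163889-8164202) spanned 314 bp, with its summit 321 bp upstream, and the replicate summits were 17 and 1 bp from the pooled one. The divergent gene bath-42 had the same summit in its window at 669 bp. The next member in the list had a signal of 111, so prp-8 stood apart from the other 54.

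Apart from the prp genes of the SF3 complex, prp-40 was the only other of 11 with a thresholded summit. The share was thus 2 of 11 (18.2%), beside 2.89% of all coding genes. In yeast, Prp40 is a U1 snRNP protein. The peak was chrIII:9521747-9522102. Its summit lay 150 bp upstream, with 465 bp to the divergent gene clu-1, and it had a pooled signal of 60.9 (rank 332). Replicate 1 gave 34.2 (rank 385) and replicate 2 gave 26.0 (rank 338), and both replicate summits were within 5 bp of the pooled one. Below the threshold, prp-18, a second-step factor, had 33.5 (rank 913) with the summit 4 bp inside the gene and 191 bp from mccc-1. The genes prp-31 and prp-3, for proteins of the tri-snRNP, had 17.5 (rank 11286) and 13.9 (rank 22316). The remaining 6 prp genes, prp-4, prp-6, prp-17, prp-19, prp-38 and prp-39, had no pooled summit.

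For prp-19, which encodes the ubiquitin ligase of the complex named after it, a region appeared in 1 list only. Replicate 2 held a summit 657 bp upstream with a signal of 38.0 (rank 203), among its strongest 491. No region of the pooled list or of the list of replicate 1 overlapped it. Among the strongest 491 regions of replicate 2, 5 lacked a pooled counterpart (1.02%), and among those of replicate 1, 0 did. The summit lay 18 bp from the 5' end of K10D2.5, far closer than to prp-19, and also in the window of emb-1.

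The last of the members counted was smu-1, a regulator of alternative splicing that was found as a suppressor of mec-8 unc-52 mutants. Its peak was chrI:12995614-12995969, with the summit 11 bp upstream of the annotated 5' end, nearer than at any other of the 9 members. It had a pooled signal of 93.0 (rank 189) with 45.7 in replicate 1 (rank 246) and 46.3 in replicate 2 (rank 159). The gene smu-2, for its partner protein, had 15.5 in the pooled list (rank 16466). The genes sut-1 and sut-2, first found through suppression of tau toxicity, had 22.9 (rank 3788) and 14.5 (rank 19911), and sut-6 had no summit in any list.

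None of the members that recognise the 3' splice site or form the SF3 part of the U2 snRNP had a thresholded summit. Over all coding genes the share was 2.89%, at which groups this small would mostly hold none. Of 3 factors that read the branch site and the 3' splice site, uaf-2, the small subunit of U2AF, had a pooled signal of 21.5 (rank 5091). The genes uaf-1, the large subunit, and sfa-1, the branch point binding protein, had no pooled summit. With 0 of 3 the interval reached 70.8%, so this group is too small to place. Of the 7 SF3 and sap genes 0 were counted, with an upper bound of 41.0%. A pooled summit was found for 5 of the 7, beside 40.8% of all coding genes.

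The strongest of these was sftb-1, for the large SF3B subunit, at 33.8 (rank 892). That summit lay 470 bp upstream of sftb-1 and 3 bp upstream of R10E4.1. The gene sftb-6, which RefSeq names as an SF3B subunit 6-like protein, had 29.1 (rank 1387), and its divergent neighbour luc-7L3 was closer to the summit. The others were sap-140 at 23.8 (rank 3193), sftb-2 at 20.1 (rank 6696) and prp-9 at 17.2 (rank 11931). The genes prp-21 and sap-49 had no pooled summit.

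Among the 14 rnp and snrp genes 0 were counted, with an upper bound of 23.2%. A pooled summit was found for 9 of the 14, beside 40.8% of all coding genes. The upper bound lies above the 2.89% of all coding genes, so the count of 0 does not set this group apart from them. The highest was rnp-6, related to the splicing factor PUF60, at 39.3 (rank 629), where the summit coincided with the annotated 5' end of rde-10 and lay 161 bp upstream of rnp-6. It was followed by snrp-3, named by RefSeq as the U1 protein C, at 31.0 (rank 1142), 158 bp upstream. The other 7 with a pooled summit, snrp-40.2, rnp-1, rnp-3, snrp-200, rnp-5, rnp-8 and rnp-4, had ranks from 4177 to 29661. The 5 with none were snrp-27, rnp-7, rnp-2, rnp-9 and snrp-40.1. Not every name of this group marks a splicing protein, since rnp-8 is known as a partner of the poly(A) polymerase GLD-2.

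**Figure D3:**
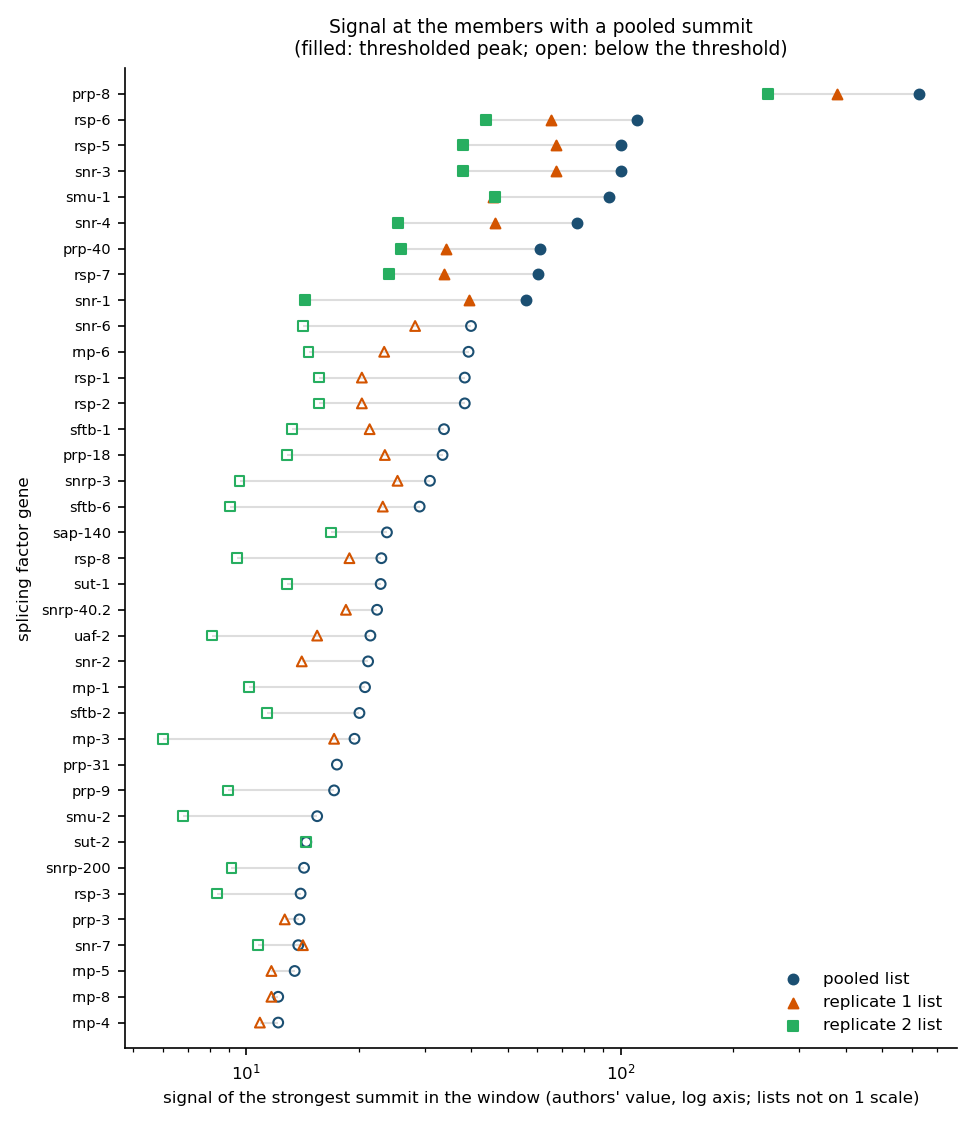
Signal of the strongest summit in the window (log axis) for the 37 members with a pooled summit, in the pooled list (circles), replicate 1 (triangles) and replicate 2 (squares). Filled marks are the 9 members with a thresholded peak. The highest is prp-8 at 627, and the next members below the threshold, snr-6 and rnp-6, stand at 39.9 and 39.3.

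All 9 members had their summit upstream, by 11 to 409 bp with a median of 228 bp. Over the 578 coding genes the median was 234 bp, and 560 had an upstream summit. All 9 members had it within 500 bp upstream, against 462 of the 578 coding genes, whose summits reached 977 bp upstream and 184 bp into the gene. These differences were not tested. For 7 of the 9 members (77.8%) no other coding gene with the same summit in its window was closer, against 379 of the 578 coding genes (65.6%). The exceptions were snr-3, with rsp-5 nearer, and snr-1, with snx-13 nearer.

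Regions that overlapped the member peaks were found in both replicates. In the list of replicate 1 all 9 peaks had an overlapping region among the strongest 491 (median rank 241), and in that of replicate 2 it was 8 of 9 (median rank 338). Over all thresholded peaks the shares were 84.7% for replicate 1 and 81.7% for replicate 2, with median ranks of 241 and 248. The 2 snr-4 peaks were matched to the same region in each list, at rank 241 in replicate 1 and rank 350 in replicate 2. That region is counted for both peaks in these figures, and its rank is the member median in replicate 1. Counted so, the member peaks had the same median rank as all thresholded peaks in replicate 1 and a lower place in replicate 2. Counted from each replicate alone, 9 members had a summit among the strongest of replicate 1, against 2.77% of coding genes, and 9 among those of replicate 2, against 2.77%. With replicate 2 in place of the thresholded list prp-19 was counted and snr-1 was not, so 8 members were counted in every list.

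**Figure D4:**
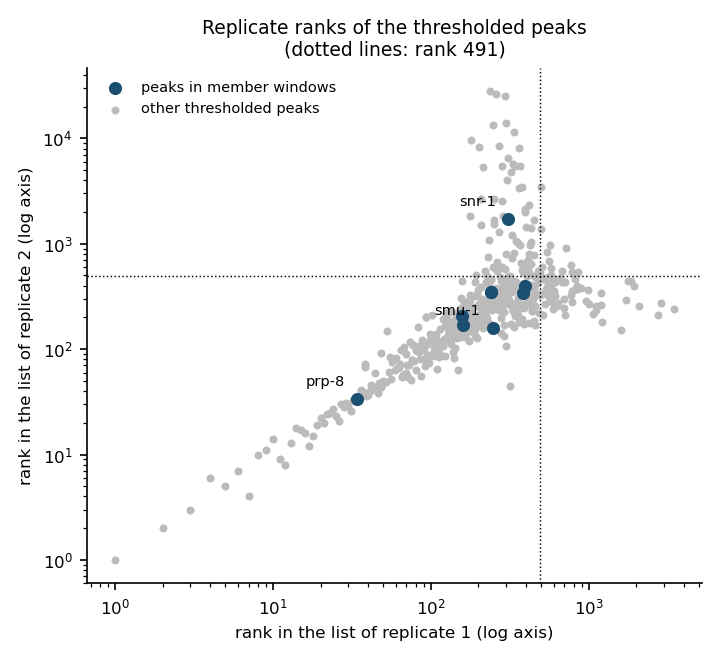
Rank of the overlapping region in the list of replicate 1 against that of replicate 2 (both log axes) for the thresholded peaks, with the 9 in member windows in blue. The prp-8 peak ranks 34 in both lists, and the snr-1 peak ranks 310 in replicate 1 and 1733 in replicate 2. The 2 snr-4 peaks fall on the same point, since they overlap the same regions.

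The higher share of members was not confined to the thresholded part of the pooled list. Up to rank 200, 5 members had a summit (9.09%, against 1.23% of all coding genes). Up to rank 1000 there were 15 (27.3%, against 4.81%), and up to rank 10000 there were 26 (47.3%, against 19.4%). These counts are cumulative, and those up to rank 1000 and 10000 include the 9 thresholded members. Between the end of the thresholded list and rank 1000 lay 6 members, which were snr-6, rnp-6, rsp-1, rsp-2, sftb-1 and prp-18. Of these, rsp-1 and rsp-2 share 1 summit. From rank 500 to rank 1000 the cumulative count rose from 9 to 15 of the 55 members, and from 585 to 962 of the 19985 coding genes. From rank 1000 to rank 10000 the share rose from 27.3% to 47.3% of members and from 4.81% to 19.4% of coding genes. From there to rank 30000 it rose from 47.3% to 67.3% of members and from 19.4% to 40.8% of coding genes, so the gap did not widen. At the other end, 11 members had no summit in any list (20.0%, against 42.7% of coding genes). A further 7 had one in a replicate list alone, a share that was not computed for all coding genes.

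**Figure D5:**
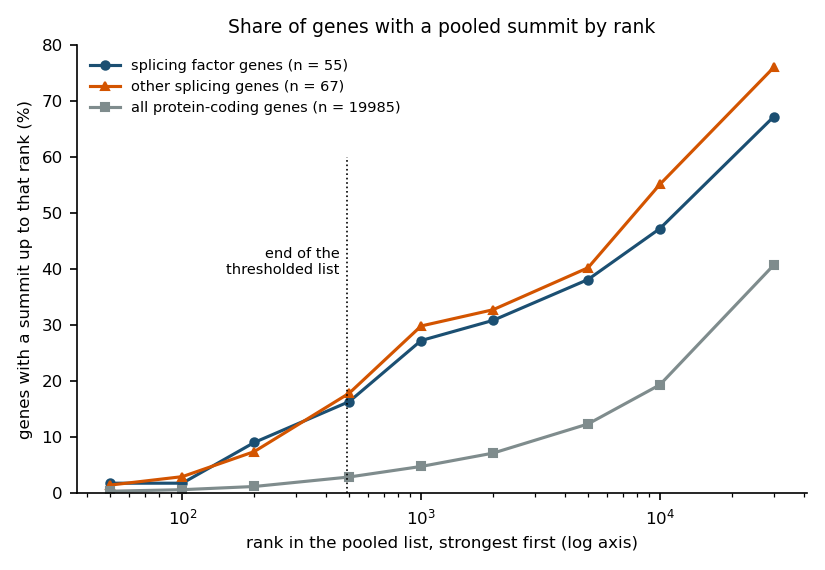
Percentage of genes with a pooled summit up to a given rank (log axis, strongest first), for the 55 splicing factor genes, the 67 other splicing genes and all 19985 protein-coding genes. Up to rank 1000 the shares are 27.3%, 29.9% and 4.81%, and at the end of the list they are 67.3%, 76.1% and 40.8%.

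Many of the members lie back to back with another coding gene. The upstream neighbour was divergent and within 1000 bp for 30 members (54.5%), against 20.3% of all coding genes. Of those 30, 6 had a thresholded summit (20.0%), against 7.70% of the divergent coding genes. A further 16 members had a neighbour on the same strand at most 500 bp upstream, the close spacing known from worm operons. Of these 2 had a thresholded summit (12.5%), rsp-6 and smu-1, against 2.20% of such genes. The remaining 9 members had 1, snr-4 (11.1%, against 1.49%). The share in members was above that of all coding genes in each kind of neighbourhood, but on counts of only 6, 2 and 1. Among the 6, rsp-5 and snr-3 were counted on the same summit. These differences were not tested, nor was the part that gene arrangement plays in the share of members.

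For 3 of the 16 closely spaced members a thresholded summit lay in the window of the first gene of the run and not in that of the member. The gene rnp-7, for the U1 70K protein, lies 4 bp downstream of syf-2, which had a thresholded summit with a signal of 50.2 (rank 435). That summit lay 405 bp upstream of syf-2 but only 192 bp from K04G7.1, a coding gene outside the run. Another splicing pair is plrg-1 and prp-38, where the summit 218 bp upstream of plrg-1 had a signal of 55.2 (rank 384) and prp-38 begins 106 bp after plrg-1. Human relatives of both SYF-2 and PLRG-1 belong to the Prp19-associated part of the spliceosome. The third is prp-39, 90 bp downstream of hmgs-1, which encodes HMG-CoA synthase, with a signal of 60.6 (rank 335). Such a peak without one at the gene itself was found for 18.8% of the closely spaced members, against 6.22% of all closely spaced coding genes. Whether these runs are transcribed as operons was not tested.

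A second list of spliceosome proteins and splicing regulators, none with a name that the rule takes, had a like share. Of its 73 names 67 were found in the annotation. A thresholded summit was counted for 16.4% of the members and for 12 of these 67 genes (17.9%, 95% interval 9.61 to 29.2). The share over all coding genes was 2.89%. The 2 lists are not separate, since snu-13 was counted on the same peak as the member rsp-7. The strongest was spk-1, an SR protein kinase gene, with 910.4 in the pooled list (rank 23), 552 in replicate 1 and 349 in replicate 2. Its summit lay 288 bp upstream and at nearly the same distance from rheb-1. The next were tiar-1, for a TIA-type RNA-binding protein, at 223 (rank 69), mog-4, for a DEAH-box helicase, at 141 (rank 123), and hrpa-1, for an hnRNP A1 homologue, at 112 (rank 157).

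The other 8 were swp-1 (93.0), snu-13 (60.1), usp-39 (59.8), hrpf-2 and rbm-39 (53.9 each, in separate peaks), syf-2 (50.2), isy-1 (48.4) and lsm-7 (47.9). At swp-1 the summit lay 892 bp upstream and only 290 bp from the ribosomal protein gene rpl-23. Other coding genes were also nearer to the summits of tiar-1 (lelo-4, 107 against 208 bp) and syf-2 (K04G7.1, 192 against 405 bp). The same held for lsm-7 (dnc-1, 23 against 276 bp) and snu-13 (rsp-7, 282 against 298 bp). In each replicate alone the list had fewer, 11 with replicate 1 and 8 with replicate 2, beside 2.77% of all coding genes in each. Other named families lay on both sides, with 7 of 48 RNA polymerase II, TFIID and Mediator genes (14.6%) and 50 of 78 cytosolic ribosomal protein genes (64.1%). Both stand beside the 2.89% of all coding genes. These shares were not tested against each other.

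The sequence at the summits resembled that of other thresholded peaks in base composition. The median GC share within 50 bp of the summit was 48.5% for the 9 member peaks (36.6 to 56.4%) and 48.5% for all thresholded peaks, against 32.7% for the 29469 pooled regions below the threshold. Each motif was searched on both strands in the same windows. CTGCGTC was in 2 member peaks, rsp-7 and snr-1, and in 12.6% of all thresholded peaks, against 1.26% below the threshold. GCGCGC was in prp-8 alone, beside 11.0% of all thresholded peaks and 1.01% below. TTTCAG, the consensus before splice acceptors, was in rsp-6 alone, beside 6.52% of all thresholded peaks and 21.8% below. None of the 9 windows held GAGAGA, which was in 103 of the 491 thresholded windows, or CACGTG, which was in 3.46% of them, or GGGCGG, in 7.13%.

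The 3 words of 6 bases that gained most in share over the other 482 thresholded peaks were ACGCAG (22.6%, against 2.43% below the threshold), CGAGAC (19.7%, against 2.59%) and GACGCA (19.1%, against 2.46%). ACGCAG and GACGCA overlap each other and the reverse complement of CTGCGTC. Each of the 3 was in 2 of the 9 member windows, and all of them were in that of rsp-7.

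The longest stretch that any pair of member windows shared with at most 1 mismatch was 14 bases, GGTCTCGCANCGAC, against 11 for the next pair. It lay in the windows of rsp-5 with snr-3 and of rsp-7 with snu-13, as the capitals above show. It was read from these windows, so its presence there is no finding. Of the other 482 thresholded windows 2 held it (0.415%), at sqd-1 (signal 2257, rank 6) and at egl-30 (signal 1861, rank 8), and 5 of the 29469 windows below the threshold held it (0.017%). The pattern occurs 47 times on the 6 nuclear chromosomes. Without the 2 peaks it was read from, 3 of the other 45 places were inside thresholded peaks (6.67%), and thresholded peaks cover 0.156% of that sequence. The pattern contains the reverse complement of CGAGAC, itself in 19.7% of the other thresholded windows and 2.59% of those below. Its share is therefore not separate from that of this word, whose part in it was not tested. A match is a description of these letters and does not show a binding site.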

How the data were processed

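ZK546.5 ChIP-seq peak lists of 2 replicates in 1 group were used. Per the submitters' records deposited with the files, regions were called for single replicates and for both combined, with a control library each time, and IDR gave the thresholded list. The sources used here name no aligner, caller, IDR threshold or depth. The signal column, deposited by the authors, is the caller's value for each region. The score column, deposited by the authors in the place of a q-value, spanned -0.0412 to 1.85 among pooled regions and served only as another ranking. Summit offsets were deposited by the authors in bp.

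Only ce11 lists were used, with Ensembl release 115 annotation of WBcel235, the same assembly. No ce11 region ran past a chromosome end, and each of the 491 thresholded peaks was also a pooled region. Each gene took its strongest summit in the window, with positions relative to the nearest transcript 5' end. Overlap needed 1 bp. No test was run: shares have exact intervals (scipy 1.17.1) and stand beside the same share over all coding genes. The window rule was tested on simulated data, where 200 of 200 planted summits were recovered.

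Members, lists and motifs were chosen with earlier results of these data known. Named are all members with a thresholded summit, the 10 strongest below it, those among 1 replicate's strongest 491 and the counted genes of the second list. All other names serve to account for each member or were chosen after their values were seen, as were runs of close genes, the 3 words and the longer pattern. Alternatives covered window length, 5' ends, midpoints, the stronger part of the list, nearest gene, ranking and each replicate alone.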

Additional observations from a re-analysis of the deposited data

How the results depend on the processing

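Of 39 alternative values, 33 stayed within 1.5 times the count reported or, for the median position, within the SD of 16.3 bp between the replicates' medians. These limits largely set that tally. A count of 6 passes as the same as 9, and the SD comes from 2 of the alternatives themselves. The number of members with a thresholded summit was 9 with 500 bp upstream, with the gene's 5' end only and with midpoints, 11 with 2000 bp upstream (rnp-7 and sap-140 added), 7 with the nearest coding gene only, 6 among the stronger 246 peaks and 12 with the start of a close same-strand run counted (added after seeing the data). It was 9 without replicate 1 and 9 without replicate 2, beside 2.77% of all coding genes in each. Members with any pooled summit ranged from 30 to 41. The median position was -282 bp with 2000 bp upstream and -211 bp among the stronger peaks, and ranged from -248 to -225 bp without either replicate. Of the second splicing list 5 genes were counted among the stronger peaks and 7 with the nearest gene only, against 12. With the strongest 1000 regions of each replicate 16 members had a summit in either list, against 10 with the strongest 491. The fewer peaks, genes or longer windows of these settings set the counts by construction. Longer windows can raise the share of all coding genes too, and counting the start of a run would add 249 coding genes. That share was not recomputed for the other windows, 5' ends, midpoints, stronger peaks or strongest 1000 regions. Whether the contrast with 2.89% holds in those settings is therefore not shown. No paired analysis was possible because the 2 replicates form a single group. With 2 replicates and unknown depth, a missing summit does not show that the protein was absent, and the groups of 3 to 14 members have wide intervals.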
